A study of Mus musculus with 6 samples.

Results

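The genes described here are 45 components of the machinery that starts and runs DNA replication, taken by symbol from the 51912 genes of the count table and grouped by step into origin licensing (9 genes), the replicative helicase and its loading and firing factors (14), DNA polymerases and fork proteins (17), and nucleotide and histone supply (5). All 45 were found in the table, and 44 passed the filter on low counts, Fen1 being the exception. Their levels come from RNA sequencing with Smart-Seq2, which amplifies full-length cDNA from small RNA inputs. The labels speak of single-cell samples but give no cell number per library. The cells came from C57BL/6J mouse testes at postnatal day 4. They had been enriched by flow cytometry for THY1 on the surface and depleted of c-KIT, a pattern used for spermatogonial stem cells. There were 3 libraries from wild type mice and 3 from mice labelled Bud31-vKO, in which Cre and loxP were used to delete Bud31, a gene for a spliceosome protein. The driver of the Cre, the deleted exons and any allele shared by the controls were not given in the labels. The count columns are headed C and T, and C was taken as wild type and T as Bud31-vKO. No label explains these letters, so each direction below rests on that reading. Nothing states that the libraries came from separate animals, and p-values therefore measure only the spread between these libraries, which may be technical.

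Replication is prepared in G1, when the origin recognition complex (ORC) with CDC6 and CDT1 loads the ring of MCM2 to MCM7 onto DNA. Geminin holds CDT1 in check outside that window. At the onset of S phase the kinase CDC7 with its partner DBF4 and the cyclin-dependent kinases turn the ring into an active helicase by joining it to CDC45 and the GINS complex. Polymerase alpha with primase then lays the primers, replication factor C (RFC) loads the sliding clamp PCNA for polymerases delta and epsilon, RPA coats single-stranded DNA, and FEN1 and LIG1 finish the lagging strand. Many of these genes are transcribed under E2F factors as cells enter S phase, and in the testis just after birth spermatogonia resume division, as do the somatic cells around them.

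Library totals ran from 13240704 to 18744466 reads, and levels are given in CPM, counts scaled to a fixed library total. By library, 3 reads corresponded to between 0.160 and 0.227 CPM, a floor for counting error only. Wild type library 3 and Bud31-vKO library 2 had the fewest genes detected, 13762 and 12464, against 18171 to 22300 in the other 4. The spread between libraries was wide, with a biological coefficient of variation of 118.6% over the 15240 genes tested. Bud31, in libraries 1 to 3 of each genotype in that order as in all such series below, measured 138, 96.8 and 158 CPM in the wild type libraries against 47.2, 67.65 and 80.4 CPM in the Bud31-vKO libraries, with no overlap between the genotypes and a fitted log2 fold change of -1.01 (standard error 0.39). Of the sort markers, Thy1 was at 13.2, 10.5 and 16.2 CPM in the wild type libraries against 11.8, 7.28 and 30.2 CPM in the Bud31-vKO libraries. Kit was at 28.9, 63.0 and 0.349 CPM in the wild type libraries against 24.05, 0.4995 and 14.0 CPM in the Bud31-vKO libraries.

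Markers showed germ cells together with other cell types in these libraries. Of 17 pan-germ-cell markers 16 were tested, and their summed level was 4330, 4293 and 3671 CPM in the wild type libraries against 2144, 2505 and 2910 CPM in the Bud31-vKO libraries. Dppa3 alone had no read in any library. The 12 markers of peritubular and stromal cells summed to 10740, 11450 and 21830 CPM in the wild type libraries against 12040, 8631 and 14950 CPM in the Bud31-vKO libraries, more than the germ cell markers in every library. Col1a1, Col1a2, Col3a1 and Dcn, genes of connective tissue matrix, made up most of that sum. The 14 Sertoli cell markers summed to 497, 146 and 317 CPM in the wild type libraries against 1828, 149 and 377.5 CPM in the Bud31-vKO libraries, the highest by far in Bud31-vKO library 1. The 16 markers of undifferentiated spermatogonia, 13 of them tested, summed to 1145, 1424 and 1212 CPM in the wild type libraries against 666, 1078 and 1098 CPM in the Bud31-vKO libraries. Their sums did not overlap, by a narrow margin, and Nanos2 was at 0 in 5 libraries. Leydig, endothelial and erythroid markers summed to at most 99.9, 257 and 216 CPM in any library, and macrophage and lymphocyte markers to 96.8 to 531 CPM, highest in Bud31-vKO library 2. In RNA from a mix of cell types, fewer cells of a type and less RNA per cell cannot be told apart.

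Replication genes were on the low side in Bud31-vKO as a group, while no single one passed the test. The fitted log2 fold change (Bud31-vKO over wild type) lay below 0 for 42 of the 44 members tested and for 48.9% of all genes tested. Its median was -0.62 over the members and 0.02 over all genes. With RLE scaling, 40 members and 47.2% of all genes lay below 0, Orc3 and Rpa2 lying just above 0. With Benjamini-Hochberg adjustment of edgeR's quasi-likelihood p-values, 0 of the 44 members were called, as were 0% of all genes, and the adjusted p was 0.9997 for each member. DESeq2 called 0.314% of all genes and no member, with its smallest adjusted p among members being 0.156 for Pola2. At an unadjusted p under 0.05 by edgeR, 7 members were lower (Mcm4, Pola2, Rfc2, Prim1, Lig1, Rrm1 and Tyms) and 0 higher, where 1.82% of all genes were lower and 1.08% higher. Leaving out wild type library 3 reduced the 7 to 1, and leaving out Bud31-vKO library 1 reduced them to 2. In these fits 2.16% and 1.62% of all genes were lower. For 14 members every Bud31-vKO library lay below every wild type library, and for 0 members above, against 6.39% and 4.76% of all genes. The 14 were 10 with RLE scaling, 11 with upper-quartile scaling and 12 with library size alone. With each of these scalings 11.2% of all genes did not overlap, counting both directions. The count below 0 was 40 of 44 when wild type library 3 and Bud31-vKO library 2 were left out, where 47.4% of all genes were below 0. It was 36 of 44 without Bud31-vKO library 1, where 53.1% of all genes were below 0.

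**Figure D1:**
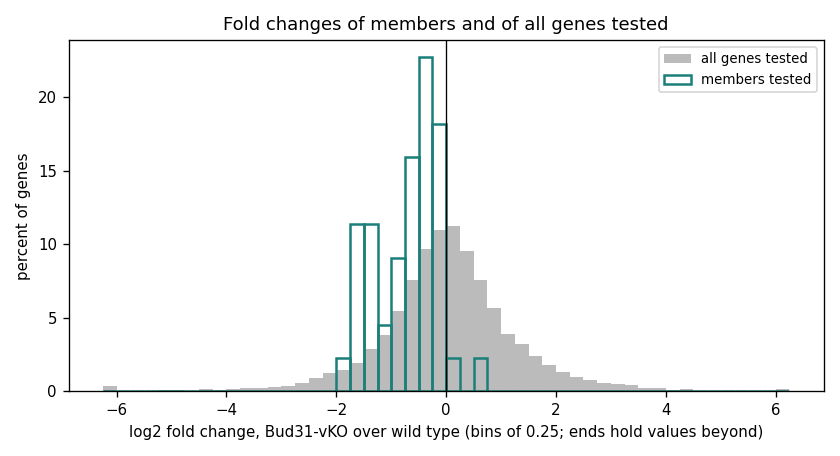
Distribution of fitted log2 fold changes (Bud31-vKO over wild type, bins of 0.25 on the x axis) as percent of genes (y axis) for all 15240 genes tested (grey) and the 44 members tested (outlined). The members lie almost wholly left of 0, with a median of -0.62 against 0.02.

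**Figure D2:**
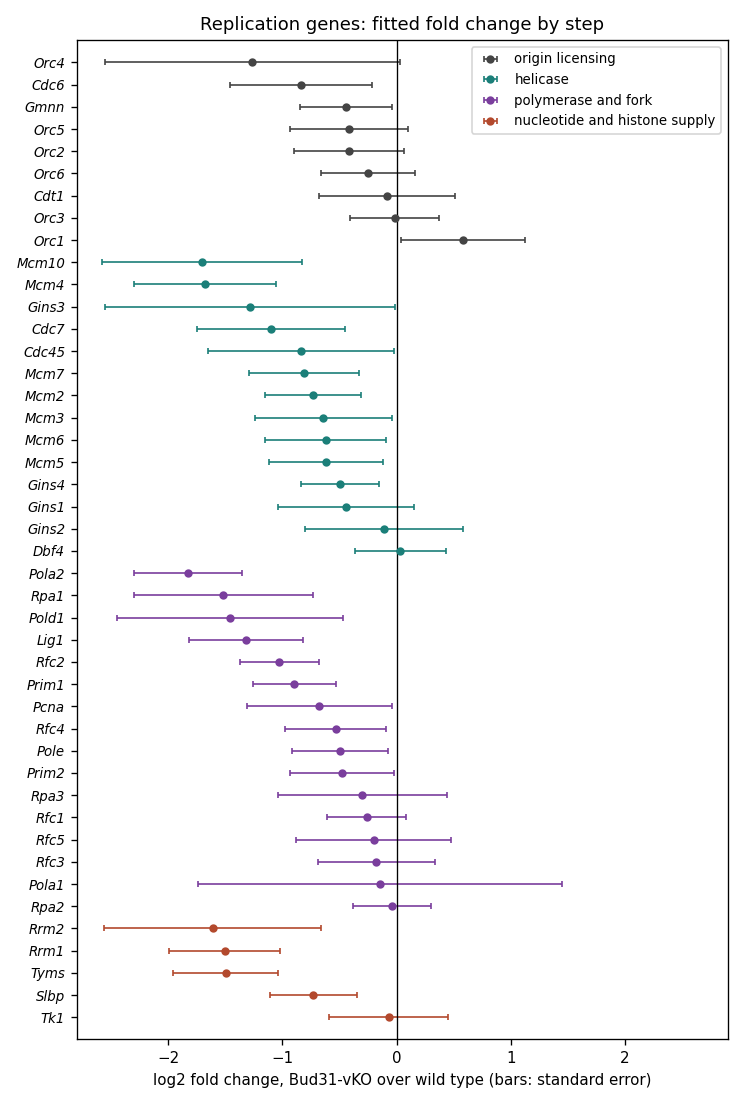
Fitted log2 fold change of each of the 44 members tested (points) with its standard error (bars), coloured by step. Orc1 and Dbf4 are the 2 members above 0, and Pola2, Mcm10, Mcm4 and Rrm2 lie farthest to the left.

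Origin licensing genes had a median log2 fold change of -0.42 over 9 genes, 8 of them below 0, and -0.22 without wild type library 2. The summed level was 864, 966 and 1100 CPM in the wild type libraries against 608, 877 and 881 CPM in the Bud31-vKO libraries, and the groups overlapped. Cdc6, whose protein acts with ORC in loading the MCM ring, measured 117, 59.8 and 287 CPM in the wild type libraries. In the Bud31-vKO libraries it measured 47.4, 94.3 and 118 CPM. Wild type library 3 was the highest and Bud31-vKO library 1 the lowest, and the other 4 lay between 59.8 and 118 CPM, so the groups overlapped (log2 fold change -0.84, standard error 0.62, edgeR unadjusted p = 0.217). With wild type library 3 left out the fold change of Cdc6 was -0.007. Cdt1, the other loading factor and the one with the highest level per kilobase of exon in this step, was at 151, 199 and 387 CPM in the wild type libraries against 77.4, 376 and 244 CPM in the Bud31-vKO libraries. Its means were nearly equal, at 245.5 ± 125 CPM for wild type against 232 ± 149.5 CPM for Bud31-vKO (SD, n = 3 each), but the range within each genotype was wide, and Bud31-vKO library 1 was the lowest of all.

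Gmnn, which encodes geminin, the inhibitor of CDT1, was at 69.3, 75.6 and 93.9 CPM in the wild type libraries against 51.5, 66.9 and 57.2 CPM in the Bud31-vKO libraries. Each Bud31-vKO library lay below each wild type library, by a narrow margin. For Gmnn the log2 fold change was -0.44 (standard error 0.40), and its 95% interval of -1.38 to 0.49 includes 0.

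Orc1, the ORC subunit whose level rises and falls with the cell cycle, was one of the pair of members above 0, at 44.0, 67.2 and 28.1 CPM in the wild type libraries against 50.7, 99.0 and 59.2 CPM in the Bud31-vKO libraries. Its fold change was 0.58 (95% interval -0.68 to 1.84). It ranged from 0.25 (leaving out Bud31-vKO library 2) to 0.94 (leaving out wild type library 2), and it was -0.007 with both libraries of few genes left out. Among the other ORC subunits, Orc3 had a log2 fold change of -0.018, Orc6 -0.25, Orc2 -0.42 and Orc5 -0.42, with overlap between the groups in each. Orc4 was at 82.75, 86.3 and 66.8 CPM in the wild type libraries against 45.2, 0.214 and 52.9 CPM in the Bud31-vKO libraries. Its 3 reads in Bud31-vKO library 2, one of the libraries with few genes detected, stood beside 618 to 1562 reads in the rest, and the fold change of -1.26 was -0.67 without that library. Per kilobase of exon Orc6 was the highest ORC gene in each library, holding from 31.7% to 37.9% of the summed ORC level.

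Genes of the helicase and its activators had a median log2 fold change of -0.69 over 14 genes, with 13 below 0, and this was -0.37 without Bud31-vKO library 1 and -1.09 without Bud31-vKO library 2. The 6 genes of the MCM ring encode subunits that work in equal numbers. Mcm4 stood farthest from 0 among them, at 113, 112 and 383 CPM in the wild type libraries against 41.3, 101 and 48.1 CPM in the Bud31-vKO libraries. All 3 Bud31-vKO libraries were below the wild type ones, but wild type libraries 1 and 2 were close to Bud31-vKO library 2 while wild type library 3 stood far above the rest. The log2 fold change of Mcm4 was -1.68 (standard error 0.62, edgeR unadjusted p = 0.028), a 3.19-fold lower level, and it ranged from -2.17 (leaving out Bud31-vKO library 2) to -0.80 (leaving out wild type library 3). Mcm4 lies on the minus strand of chromosome 16, at 15623897 to 15637400 of GRCm38.

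Mcm2, another subunit of the ring, measured 398, 763.5 and 887 CPM in the wild type libraries against 262, 597 and 374 CPM in the Bud31-vKO libraries. Wild type library 1 lay between the values of Bud31-vKO, so the groups overlapped; the log2 fold change was -0.73 (95% interval -1.71 to 0.25). Mcm7 did not overlap, at 279, 325 and 244 CPM in the wild type libraries against 60.9, 218 and 205 CPM in the Bud31-vKO libraries, and its log2 fold change was -0.81. For Mcm3, Mcm5 and Mcm6 the fold changes were -0.64, -0.62 and -0.62, with overlap in each. With Bud31-vKO library 2 left out they were -1.37, -0.85 and -1.36, and with Bud31-vKO library 1 left out -0.20, -0.22 and -0.29.

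Levels of the MCM ring genes differed between libraries of the same genotype. Their summed level was 399, 641 and 831 CPM per kilobase of exon for wild type against 172.5, 599.5 and 354 CPM per kilobase for Bud31-vKO. Each of Mcm2 to Mcm7 had its lowest value of all libraries in Bud31-vKO library 1, and Bud31-vKO library 2 came within the wild type range for Mcm2, Mcm3, Mcm5 and Mcm6. By share of that sum Mcm3 or Mcm6 was the highest in each library except Bud31-vKO library 3, where Mcm5 was. Mcm4 held from 3.79% to 12.8% and was the lowest in each library except wild type library 3, where Mcm7 was. Within a library the highest MCM gene was 3.12 to 6.90 times the lowest per kilobase of exon.

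**Figure D3:**
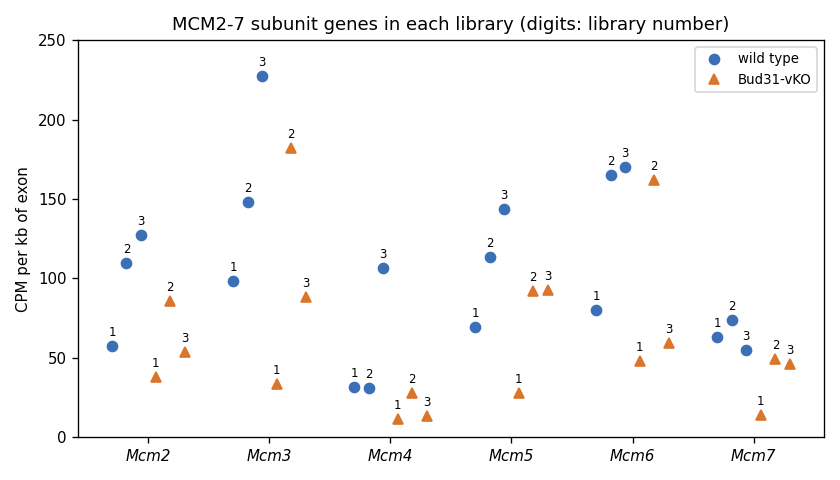
Level of each MCM2-7 subunit gene in each library, in CPM per kilobase of exon (y axis), with wild type as circles, Bud31-vKO as triangles and the library number beside each point. Bud31-vKO library 1 is the lowest for every subunit, and Bud31-vKO library 2 overlaps wild type for Mcm2, Mcm3, Mcm5 and Mcm6.

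Mcm10, which joins the ring as it fires and holds polymerase alpha at the fork, was at 103, 94.35 and 441 CPM in the wild type libraries against 12.2, 90.4 and 93.3 CPM in the Bud31-vKO libraries. Without overlap, the groups were separated by a gap of only about 1 CPM between wild type library 2 and Bud31-vKO library 3, while wild type library 3 and Bud31-vKO library 1 lay far out on either side. Its log2 fold change was -1.70 (standard error 0.88, edgeR unadjusted p = 0.0892), ranging from -2.06 (leaving out wild type library 2) to -0.57 (leaving out wild type library 3). Cdc45, the third part of the active helicase, was at 29.8, 49.6 and 94.4 CPM in the wild type libraries against 8.845, 59.5 and 28.9 CPM in the Bud31-vKO libraries, with overlap and a fold change of -0.84, ranging from -1.61 (leaving out Bud31-vKO library 2) to -0.26 (leaving out wild type library 3).

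Of the 4 GINS subunits, Gins4 had the highest level per kilobase of this step, from 76.0% to 84.9% of the summed GINS level in each library. It measured 359.8, 329 and 203 CPM in the wild type libraries against 182, 271 and 180 CPM in the Bud31-vKO libraries, where wild type library 3 lay below Bud31-vKO library 2. Its log2 fold change was -0.49 with a 95% interval of -1.28 to 0.30. Gins1 had -0.44 and Gins2 -0.11. Gins3, at 11.5, 19.2 and 44.8 CPM in the wild type libraries against 1.68, 25.2 and 4.14 CPM in the Bud31-vKO libraries, had -1.28 with a standard error of 1.27, ranging from -3.10 (leaving out Bud31-vKO library 2) to -0.54 (leaving out wild type library 3).

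Cdc7, the catalytic subunit of the kinase that fires origins, measured 78.5, 105 and 89.55 CPM in the wild type libraries against 38.7, 12.9 and 75.7 CPM in the Bud31-vKO libraries, with no overlap and a log2 fold change of -1.10 (standard error 0.65), ranging from -1.82 (leaving out Bud31-vKO library 3) to -0.66 (leaving out Bud31-vKO library 2). Dbf4, the partner that activates it, varied little, at 63.1, 60.5 and 68.7 CPM in the wild type libraries against 69.15, 60.7 and 66.9 CPM in the Bud31-vKO libraries. Its log2 fold change was 0.033, with a 95% interval of -0.90 to 0.96.

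Promoter sequence was looked at because E2F factors are the textbook regulators of these genes and most members lay below 0. RefSeq promoter windows of GRCm38.p6, from 250 bases before to 50 after the first listed start of a gene, matched 37 of the 45 members by symbol; Gmnn, Mcm4, Gins1, Gins2, Gins4, Rfc2, Prim2 and Pole were not matched. The letters TTTGGCGC, TTTCCCGC, TTTGCCGC and TTTCGCGC, which are the common forms of the E2F site, were searched on both strands. At least 1 of them stood in 12 of the 37 windows, or 32.4%, against 2.32% of the 27025 windows of all genes and 4.16% of the 10829 windows of genes tested here. The shares were 4 of 8 for origin licensing, 5 of 10 for the helicase step, 3 of 14 for polymerases and fork proteins and 0 of 5 for nucleotide and histone supply. CCAAT, the letters of the CCAAT box, stood in 59.5% of the member windows, 37.9% of all windows and 38.8% of those of genes tested. For TTTGAA, a form of the cell cycle homology region, the shares were 16.2%, 18.1% and 11.9% in that order.

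The windows of Mcm5 and Mcm6 are shown because each holds overlapping E2F letters on both strands, and those of Orc1 and Pola1 because they also hold the letters while their fold changes lay at 0.58 and -0.14. Each run gives the 170 bases before the start on the strand of the gene, 5′ to 3′, with E2F letters on either strand in capitals. They lie at chr8:75109339-75109508 on the plus strand, chr1:128359706-128359875 on the minus strand, chr4:108579284-108579453 on the plus strand and chrX:93632156-93632325 on the minus strand.
Mcm5: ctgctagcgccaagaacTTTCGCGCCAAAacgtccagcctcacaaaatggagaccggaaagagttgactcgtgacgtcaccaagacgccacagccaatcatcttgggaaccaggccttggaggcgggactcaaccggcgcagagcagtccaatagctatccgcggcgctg
Mcm6: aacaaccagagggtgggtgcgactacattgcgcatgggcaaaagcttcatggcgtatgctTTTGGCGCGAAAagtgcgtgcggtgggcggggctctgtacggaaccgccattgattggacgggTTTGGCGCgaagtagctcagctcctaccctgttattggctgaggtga
Orc1: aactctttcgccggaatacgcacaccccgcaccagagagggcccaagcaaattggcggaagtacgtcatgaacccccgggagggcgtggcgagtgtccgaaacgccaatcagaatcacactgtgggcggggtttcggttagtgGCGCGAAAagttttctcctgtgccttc
Pola1: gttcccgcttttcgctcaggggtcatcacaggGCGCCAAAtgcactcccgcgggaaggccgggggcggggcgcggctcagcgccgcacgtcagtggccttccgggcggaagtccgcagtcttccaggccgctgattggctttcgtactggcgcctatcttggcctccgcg

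Counted from the start site, the overlapping letters of Mcm5 begin at -153 and -149 and those of Mcm6 at -110 and -106, with a further match at -47. The median log2 fold change was -0.62 over the 12 with the letters, of which 11 were below 0, and -0.73 over 24 tested members without them, of which 23 were below 0. Of the 7 members lower at an edgeR unadjusted p under 0.05, Pola2, Prim1, Lig1, Rrm1 and Tyms had none of these letters in the window. Mcm4 and Rfc2 had no matched window and could not be looked at. A match is a string of letters and not a measured site. Only these exact letters were searched, so a window without them may still hold a variant of the site. No test was made of the difference between these shares.

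Polymerase and fork genes held the member with the smallest p of all 44. Over the 16 members tested in this step all 16 were below 0 (Rpa2 was at 0.001 with RLE scaling), with a median log2 fold change of -0.51. Of these, 6 were lower without overlap, as were 6.39% of all genes. Pola2, the regulatory subunit that tethers polymerase alpha to primase, was at 128.5, 191 and 394 CPM in the wild type libraries against 53.4, 75.6 and 72.6 CPM in the Bud31-vKO libraries. The 3 Bud31-vKO libraries lay close together and all below the lowest wild type library. Its mean was 238 ± 139 CPM for wild type against 67.2 ± 12.02 CPM for Bud31-vKO (SD, n = 3 each), a 3.54-fold lower level with a log2 fold change of -1.82, a standard error of 0.47 and an edgeR unadjusted p of 0.00503. That p ranked Pola2 30th of the 15240 genes. Leaving out each library in turn gave from -2.12 (leaving out wild type library 1) to -1.23 (leaving out wild type library 3). Pola2 lies on the minus strand of chromosome 19, at 5940542 to 5964202, with no exon shared with another gene.

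The other subunits of the same primer-making complex differed in overlap. Prim1, the catalytic subunit of primase, was at 139.8, 113 and 157 CPM in the wild type libraries against 86.1, 55.0 and 78.7 CPM in the Bud31-vKO libraries, with no overlap and a log2 fold change of -0.90 (edgeR unadjusted p = 0.0393). Prim2, the large subunit of primase, also did not overlap, and had -0.48 (95% interval -1.53 to 0.58). The margin for Prim2 was narrow, with 57.8 CPM in wild type library 3 against 56.6 CPM in Bud31-vKO library 3. Pola1, the catalytic subunit of polymerase alpha, measured 71.1, 24.0 and 58.1 CPM in the wild type libraries against 64.0, 0 and 74.6 CPM in the Bud31-vKO libraries. It had 0 reads in Bud31-vKO library 2 and 876 and 1009 in the other Bud31-vKO libraries, and its fold change of -0.14 became 0.45 without library 2. Summed over the 4 genes, the complex was at 71.4, 67.6 and 104 CPM per kilobase for wild type against 42.1, 32.2 and 47.1 CPM per kilobase for Bud31-vKO, without overlap.

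Clamp loading showed the second-smallest p of the step. Rfc2, one of the small subunits of the clamp loader, was at 269, 239.5 and 403 CPM in the wild type libraries against 112, 145.5 and 190.2 CPM in the Bud31-vKO libraries. All 3 Bud31-vKO libraries lay below the lowest wild type library, and the log2 fold change was -1.03 (standard error 0.35, edgeR unadjusted p = 0.019), a 2.04-fold lower level. Exons of Lat2 on the opposite strand cover 15.1% of its exon bases, and whether strand was used in counting is not given. Rfc4 had -0.53 without overlap, by a narrow margin of 161.6 CPM in wild type library 1 against 159.2 CPM in Bud31-vKO library 1. Its lowest value of 55.3 CPM was that of Bud31-vKO library 2. Exons of Eif4a2 on the opposite strand cover 12.65% of the exon bases of Rfc4. Eif4a2 was at 370, 251 and 306 CPM in the wild type libraries against 721, 820 and 603 CPM in the Bud31-vKO libraries, and its effect on the Rfc4 counts was not tested. Rfc1, the large subunit, had -0.26, and Rfc3 and Rfc5 had -0.18 and -0.20, all with overlap. Pcna, the clamp itself, was at 33.0, 40.9 and 57.5 CPM in the wild type libraries against 19.3, 38.8 and 24.25 CPM in the Bud31-vKO libraries, with overlap and a fold change of -0.68.

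On the lagging strand, Lig1, the ligase that joins Okazaki fragments, was at 238, 354 and 352 CPM in the wild type libraries against 86.1, 65.7 and 227 CPM in the Bud31-vKO libraries. Bud31-vKO library 3 approached the lowest wild type library, and libraries 1 and 2 were far below it. The fold change was -1.32 (standard error 0.50, edgeR unadjusted p = 0.0312), from -2.05 (leaving out Bud31-vKO library 3) to -1.002 (leaving out Bud31-vKO library 2). Pold1 and Pole, the catalytic subunits of polymerases delta and epsilon, had log2 fold changes of -1.46 and -0.49 with overlap. Pold1 was at 63.9, 305 and 150.2 CPM in the wild type libraries against 12.1, 155 and 21.7 CPM in the Bud31-vKO libraries, and its fold change was -3.35 with Bud31-vKO library 2 left out and -0.77 with wild type library 2 left out. Pole kept to 59.5 to 61.4 CPM in all 3 Bud31-vKO libraries.

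In RPA, the trimer that coats single-stranded DNA, Rpa2 was the gene with the highest level per kilobase among all 45 members, at 840.2, 717 and 762 CPM in the wild type libraries against 457, 741 and 1058 CPM in the Bud31-vKO libraries. The group means of Rpa2 were nearly equal, its log2 fold change was -0.040 with a 95% interval of -0.83 to 0.76, and Bud31-vKO libraries 1 and 3 were the lowest and highest of all 6. Rpa1, the largest subunit, was at 163, 122 and 440.1 CPM in the wild type libraries against 32.5, 39.6 and 181 CPM in the Bud31-vKO libraries, with a fold change of -1.52 and overlap through Bud31-vKO library 3. The value for Rpa1 ranged from -2.75 (leaving out Bud31-vKO library 3) to -0.74 (leaving out wild type library 3). Rpa3 had -0.30. Rpa2 held from 68.9% to 92.7% of the summed RPA level per kilobase.

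**Figure D4:**
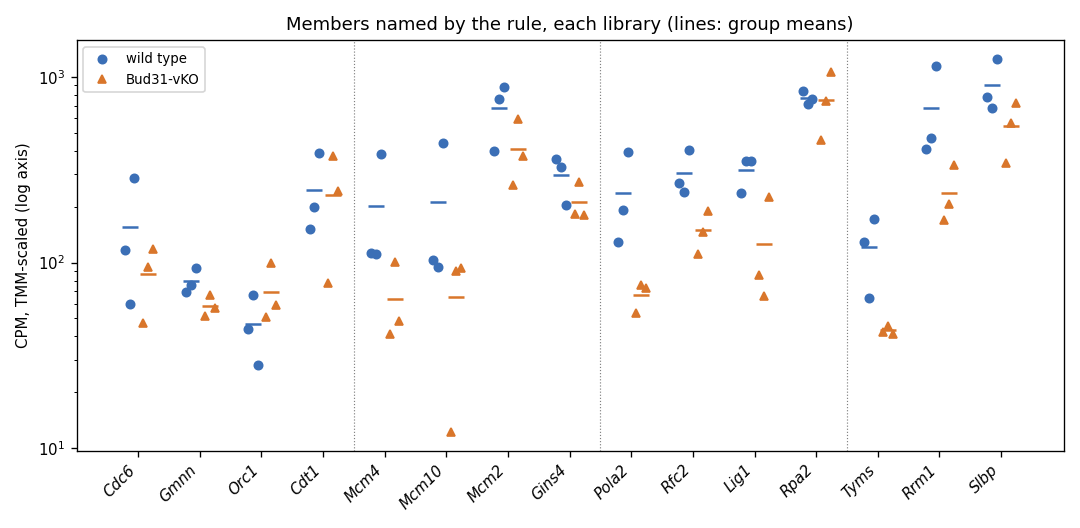
TMM-scaled CPM (log axis) of the 15 members with the smallest p or the highest level per kilobase in their step, in each library, with wild type as circles, Bud31-vKO as triangles and lines at the group means. Mcm4, Mcm10, Pola2, Rfc2, Lig1, Tyms, Rrm1 and Gmnn do not overlap, and wild type library 3, the third circle of each gene, is the highest wild type value for each gene except Orc1, Gins4, Lig1 and Rpa2.

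The nucleotide and histone supply genes had a median log2 fold change of -1.50 over 5 genes, all below 0. This median was -0.82 without wild type library 3. With Bud31-vKO library 2 left out as well it was -0.52, where the helicase median was -0.95, the polymerase and fork median -0.62 and the origin licensing median -0.41. Rrm1, the large subunit of ribonucleotide reductase, which makes deoxynucleotides, was at 409, 469.6 and 1151 CPM in the wild type libraries against 169.6, 208 and 337.5 CPM in the Bud31-vKO libraries. Wild type library 3 stood far above the rest, and the 3 Bud31-vKO libraries all lay below wild type. The log2 fold change of Rrm1 was -1.51 (standard error 0.48, edgeR unadjusted p = 0.0148), and -0.86 without wild type library 3. Rrm2, the small subunit of the same enzyme and the one limited to S phase, was at 30.7, 26.0 and 88.6 CPM in the wild type libraries against 5.92, 8.49 and 33.2 CPM in the Bud31-vKO libraries, with overlap and a log2 fold change of -1.61, ranging from -2.75 (leaving out Bud31-vKO library 3) to -0.82 (leaving out wild type library 3).

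Tyms, the enzyme that makes thymidylate, was at 129, 64.8 and 171 CPM in the wild type libraries against 42.25, 45.7 and 41.3 CPM in the Bud31-vKO libraries. Its Bud31-vKO libraries lay between 41.3 and 45.7 CPM, all below wild type library 2, and the mean was 122 ± 53.35 CPM for wild type against 43.1 ± 2.285 CPM for Bud31-vKO (SD, n = 3 each). This gave a log2 fold change of -1.50 (standard error 0.46, edgeR unadjusted p = 0.0125). Tk1, the kinase of the thymidine salvage route, measured 127, 209.7 and 275.5 CPM in the wild type libraries against 89.0, 332 and 162 CPM in the Bud31-vKO libraries, with a fold change of -0.070 (95% interval -1.28 to 1.14), ranging from -0.69 (leaving out Bud31-vKO library 2) to 0.30 (leaving out Bud31-vKO library 1). Slbp, which binds the stem-loop of histone mRNA and so couples histone supply to S phase, was the highest of the step per kilobase, at 783, 676 and 1252 CPM in the wild type libraries against 342, 567 and 728 CPM in the Bud31-vKO libraries. Bud31-vKO library 3 overlapped wild type, and the log2 fold change was -0.73 (standard error 0.38, edgeR unadjusted p = 0.0929).

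Other genes of replication, from a list of 45 further symbols of which 44 were matched and 43 tested, were examined beside the members. Of these, 36 lay below 0, against 48.9% of all genes, and 0 passed the test over all genes. Their median log2 fold change was -0.48. At an unadjusted p under 0.05 by edgeR, 2 were lower and 1 higher, where 1.82% of all genes were lower and 1.08% higher. Lrwd1, which binds ORC on chromatin, was at 96.3, 199 and 217 CPM in the wild type libraries against 57.2, 13.8 and 55.4 CPM in the Bud31-vKO libraries, with a log2 fold change of -2.02. Chtf18, a subunit of an alternative clamp loader, was at 49.1, 90.5 and 145 CPM in the wild type libraries against 21.2, 2.93 and 33.6 CPM in the Bud31-vKO libraries, with -2.30. Both were without overlap, and Bud31-vKO library 2 was the lowest in each. Top1, the topoisomerase that relaxes DNA ahead of the fork, was higher, at 167, 93.0 and 102.5 CPM in the wild type libraries against 328, 164 and 261.5 CPM in the Bud31-vKO libraries, with 1.06 and overlap at 167 and 164 CPM. Pold3, an accessory subunit of polymerase delta, had -0.73 without overlap.

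The summed level of the 45 members was 7681, 9126 and 12360 CPM in the wild type libraries against 3941, 7436 and 6897 CPM in the Bud31-vKO libraries. Every Bud31-vKO library lay below every wild type library, with Bud31-vKO library 2 close to wild type library 1. The germ cell marker sum, given above, was also without overlap. Of the 16 pan-germ-cell markers tested, 15 were below 0, against 48.9% of all genes, with a median log2 fold change of -0.82. At an edgeR unadjusted p under 0.05, 4 of these markers were lower, where 1.82% of all genes were lower. The ratio of member sum to germ cell sum was 1.77, 2.13 and 3.37 for wild type against 1.84, 2.97 and 2.37 for Bud31-vKO, which overlapped. Bud31-vKO library 1 had both the lowest member sum and the highest Sertoli sum. The Sertoli sums of Bud31-vKO libraries 2 and 3, 149 and 377.5 CPM, lay within the wild type range. Between the genotypes, 11 of 12 Sertoli markers tested were above 0 in log2 fold change, where 7782 of the 15240 genes tested were above 0. Without overlap were 0 of the 12, against 6.39% of all genes lower and 4.76% higher. Of the 14 Sertoli markers, 9 were at 0 reads in at least 1 library, among them Sox9 in wild type library 3 and Wt1 in Bud31-vKO library 2. Wild type library 3 had the highest member sum and the highest stromal sum, and of the 11 stromal markers tested 7 were below 0. The part of germ cell share, somatic cells and library quality in the fold changes was not tested. Of the general markers of dividing cells, Mki67 had a log2 fold change of -0.021, Cdk1 0.038, Birc5 0.037 and Ccnb1 -0.28, all with overlap, while Top2a had -1.14 without overlap.

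**Figure D5:**
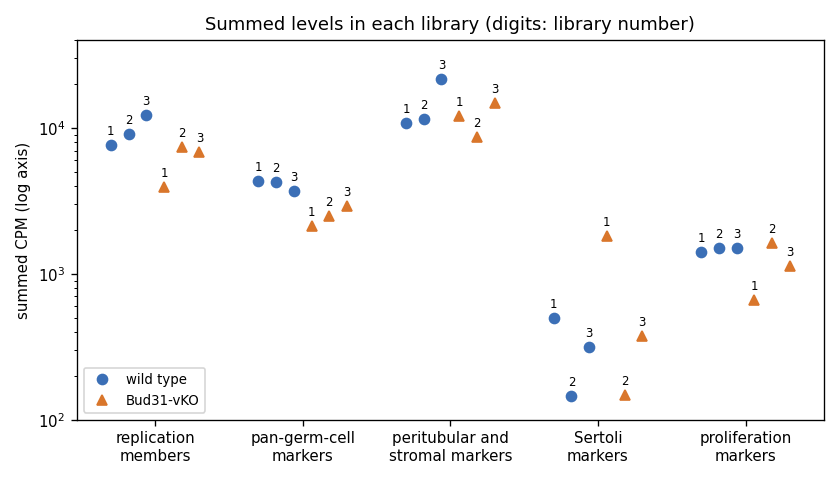
Summed CPM (log axis) in each library of the 45 replication members and of the pan-germ-cell, peritubular and stromal, Sertoli and proliferation marker lists, with wild type as circles, Bud31-vKO as triangles and the library number beside each point. Bud31-vKO library 1 is the lowest for the members and the highest for the Sertoli markers.

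Counts of some members are uncertain because their exons lie under exons of genes on the opposite strand or share sequence with other genes. Whether strand was used in counting is not given, and the effect on these counts was not tested. Fen1, the nuclease that trims Okazaki fragments, had 2, 1 and 4 reads in the wild type libraries and 3, 0 and 0 in the Bud31-vKO ones, and it gives no comparison. Its gene lies on the minus strand of chromosome 19, at 10199132 to 10204169, and 84.2% of its exon bases are covered by exons of Gm10143 and Tmem258 on the opposite strand. Across the table, 87.7% of the 292 protein-coding genes with at least 80% of their exon bases covered by exons of other genes had under 15 reads in all libraries together, against 37.1% of those with 40% to under 80% covered, 11.1% of those with some but under 40% covered and 32.2% of those with none. Gins2 has 67.3% of its exon bases under Gse1, and Orc2 29.8% under Nif3l1, both on the opposite strand. Pcna shares 31.8% of the 50-base stretches of its longest transcript with the pseudogene Pcna-ps2, which had 1 to 10 reads per library, and Mcm7 shares 34.2% with other genes, most of them with Gm5487. Levels of these members per kilobase are uncertain on that account.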

How the data were processed

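Gene-level read counts for the 6 libraries were used as the authors deposited them: whole numbers, not normalized. The submitters' processing notes name bcl2fastq and mm10. Not given in the sources used here: aligner, counter, annotation and strand setting. Symbols came from GENCODE M21 and matched 99.6% of identifiers. Counts were scaled by TMM, filtered with filterByExpr (minimum count 10, minimum total 15) and tested with edgeR 4.0.16 in R 4.3.3 (quasi-likelihood F test, Benjamini-Hochberg threshold 0.05 over 15240 genes). DESeq2 1.42.0 and limma-voom (limma 3.58.1), other scalings and filters, a replicate term and leaving out libraries were alternatives. The fit was tested on simulated data. CPM are TMM-scaled, and CPM per kilobase are divided by the union exon length. Standard errors are the fold change over the square root of F. With 3 against 3 libraries, an exact two-sided permutation test cannot go below 0.1, and none was used.

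The members and gene lists were chosen with earlier results of these data known. Values in every library were to be given for the 3 members of each step with the smallest unadjusted p and the one with the highest level per kilobase, and for Bud31, Thy1 and Kit; of the other replication genes the 4 with the smallest p were to be named. Values in every library for further members, the proliferation marker genes named, and the count of members at an unadjusted p under 0.05 were added after the data were seen.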

Additional observations from a re-analysis of the deposited data

How the results depend on the processing

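No member was called under any of the 15 alternatives. Over all genes, 0 were called except with no filter, where 7 were (5 higher and 2 lower), and with DESeq2, where 47 were (17 higher and 30 lower). The median over members stayed below 0, from -0.45 (Bud31-vKO library 1 left out) to -0.82 (wild type library 1 left out). The median of all genes was -0.082 in the former and 0.11 in the latter. Members without overlap numbered 31 with wild type library 3 and Bud31-vKO library 2 both left out, where 39.4% of all genes did not overlap. They numbered 14 to 24 when 1 library was left out. The 14 were without Bud31-vKO library 1 and the 24 without Bud31-vKO library 2, where 19.2% and 24.9% of all genes did not overlap. They numbered 10 with RLE scaling and with DESeq2, 11 with upper-quartile scaling, 12 with library size alone and 13 with either other filter. The share of all genes without overlap was 11.2% with each of those scalings and with DESeq2. It was 6.98% with no filter and 12.2% with the 5 CPM filter. The nucleotide and histone supply median was -0.52 with both left out and ranged from -1.72 to -0.82 when 1 library was left out. Members lower at an unadjusted p under 0.05 by edgeR numbered 1 to 10 when 1 library was left out, where 1.23% to 2.73% of all genes were lower. With a replicate block they numbered 11, where 1.72% of all genes were lower, and 0 genes were called. Same-numbered libraries correlated at 0.183, 0.068 and -0.049 in their deviations, so the numbers were not taken as pairs.

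Of 44 members, 31 kept their sign under all 15 alternatives. With both left out, Orc1 was at -0.007, Orc3 0.094, Pola1 0.555 and Rpa3 0.127. Orc3 was at 0.018 with RLE scaling and with DESeq2 and 0.001 with the 5 CPM filter, and Rpa2 at 0.001 with RLE scaling and with DESeq2. Leaving out 1 library gave Orc3 -0.138 to 0.183, Cdt1 -0.608 to 0.437, Gins1 -0.715 to 0.053, Gins2 -0.564 to 0.121, Dbf4 -0.015 to 0.106, Rfc1 -0.511 to 0.022, Rfc3 -0.629 to 0.202, Rfc5 -0.559 to 0.25, Pola1 -0.679 to 0.449, Rpa2 -0.37 to 0.239, Rpa3 -0.812 to 0.052 and Tk1 -0.693 to 0.305. The cause was not tested.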
